A study of Homo sapiens with 24 samples.

Results

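ADP-ribosylation is a modification in which enzymes transfer ADP-ribose from NAD+ to a protein or a nucleic acid, singly or as chains, and ADP-ribose hydrolases take it off again. The hydrolases differ in the bond they cut. ADPRH acts on modified arginine and its relative ADPRS on modified serine, PARG trims the chains that PARP enzymes build at DNA damage, and the macrodomain enzymes OARD1, MACROD1 and MACROD2 release ADP-ribose from acidic residues.

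The 7 genes of this group, ADPRH, ADPRHL1, ADPRS, PARG, OARD1, MACROD1 and MACROD2, were taken by symbol from the 60564 genes of the deposited counts. ADPRH was chosen by its fall in all 5 Δ133p53 cell lines against control, so its values against control are a description without a test. The other genes were added as enzymes that remove ADP-ribose or as relatives of them. ADPRHL1, a relative thought to lack the catalytic activity, is counted with the hydrolase genes here. All 7 were found and all 7 passed the filter on low counts, as did 17990 genes in all.

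RNA was sequenced from the lung cancer cell line H1299 (human, non-small cell, without p53 of its own), carrying vector alone (control) or stably expressing a p53 isoform. The isoform was Δ133p53α in the clonal lines Δ133p53α1, Δ133p53α2 and Δ133p53α8 and Δ133p53β in the clonal lines Δ133p53β5 and Δ133p53β10. Each line had 4 libraries, 24 in all. Each Δ133p53 line is a single clone, so an effect of the isoform and a difference between clones cannot be told apart within a line. Control was also a single line, shared by all comparisons. In a change seen in every Δ133p53 line, a trait of that control line and an effect of the isoforms cannot be told apart. Nothing states whether the libraries of a line came from separate cultures, and p-values then measure the spread between these libraries, which may be technical. For 1 library the sources differ: the sample labels count 3 of Δ133p53β5 and 5 of Δ133p53β10, the deposited counts 4 of each, and it was analysed as Δ133p53β5 replicate 4. Libraries held between 21531599 and 25381731 reads on genes. The vimentin gene VIM and the keratin genes KRT8 and KRT18, which mark this cell line, had at least 11255 reads in every library, and the leukocyte genes PTPRC and CD3E had 0.

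The libraries also fell into 2 sets of 12 with opposite trends of expression with gene length, which here is the length of the merged exons. In each library, the log2 level of a gene relative to its mean over all libraries was set against this length. The rank correlation across genes was from 0.187 to 0.301 in the positive set and from -0.269 to -0.113 in the negative set. Control, Δ133p53α2 and Δ133p53α8 each had 3 libraries in the positive set and 1 in the negative, and the other lines had 1 and 3. Several hydrolase genes moved with these sets, and the values are given beside each result.

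ADPRH (ENSG00000144843, GRCh38 chromosome 3 from 119579268 to 119589945, plus strand) encodes the hydrolase that frees arginine from ADP-ribose. The 4 control libraries held 56, 78, 91 and 55 ADPRH reads. All 16 libraries of Δ133p53α1, Δ133p53α2, Δ133p53α8 and Δ133p53β5 held 0 reads, and those of Δ133p53β10 held 1, 0, 1 and 1. Every control library therefore lay above every Δ133p53 library, with 280 reads in control against 3 reads in the 20 Δ133p53 libraries together. As CPM (counts scaled to a common library size, after TMM), the control level was 2.80 ± 0.657 (SD, n = 4). With a floor of 3 reads per library, which is what a count of 0 allows, the fall of ADPRH in Δ133p53α1 came to at least 18.5-fold. For the other α lines the bounds were at least 20.6-fold (Δ133p53α2) and at least 21.6-fold (Δ133p53α8). For Δ133p53β5 and Δ133p53β10 they were at least 20.2-fold and at least 20.3-fold. These bounds cover counting error only, and PCR reads are not independent molecules. The 5 comparisons share the same 4 control libraries. Both sets of libraries showed the gap, since the single control library of the negative set had 56 reads and the 3 of the positive set from 55 to 91. In bulk RNA, fewer cells that express a gene and less RNA per cell cannot be told apart.

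ADPRH was at or under the floor in all Δ133p53 libraries, so a difference between Δ133p53β and Δ133p53α was not detectable at this depth. The 3 reads all came from Δ133p53β10. The antisense transcript ENSG00000272967, which covers 383 exon bases of ADPRH on the opposite strand, had 2 reads over the 24 libraries, 1 in a control and 1 in a Δ133p53β10 library.

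**Figure D1:**
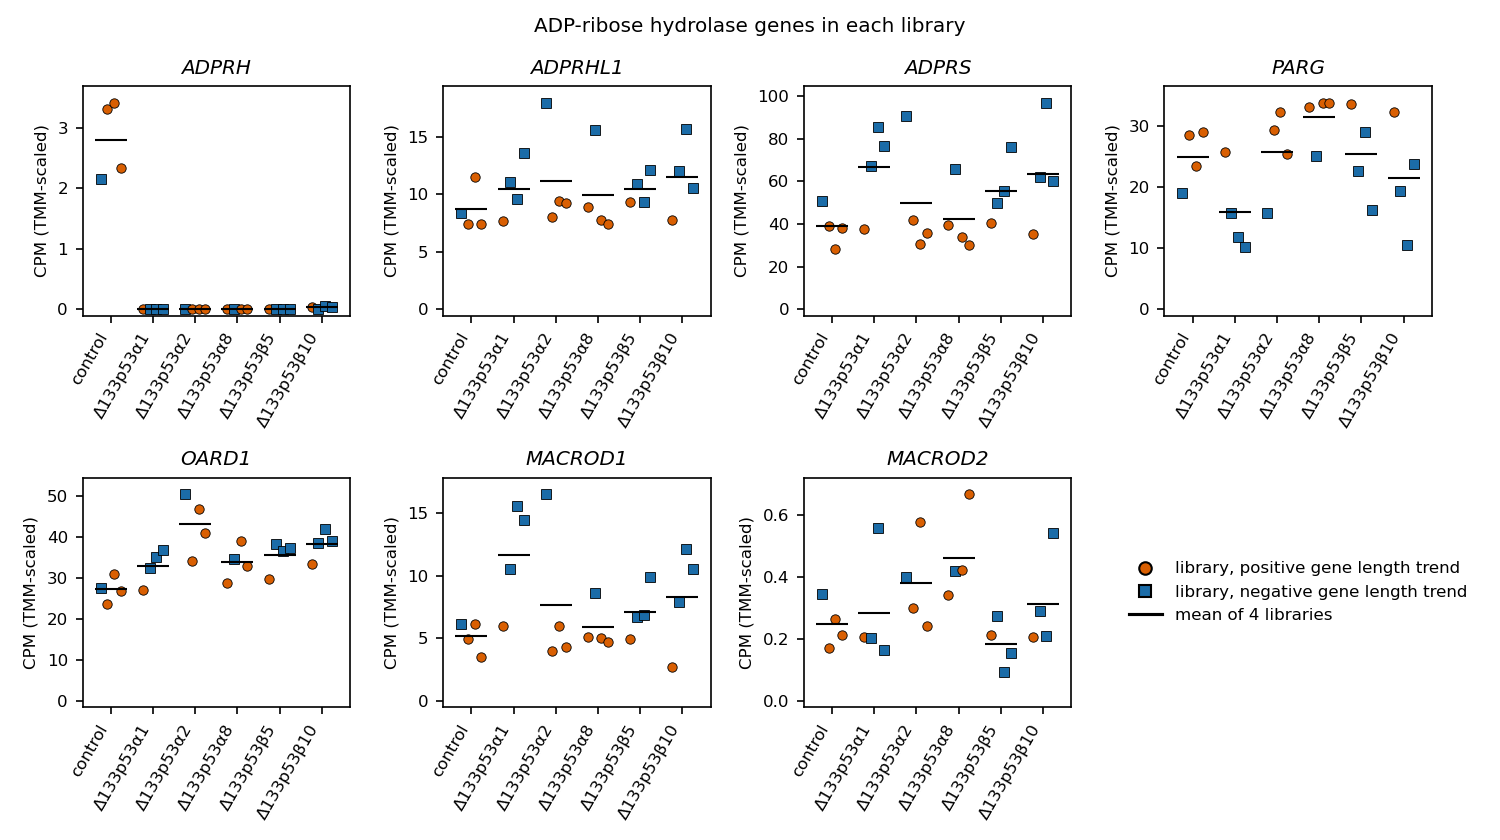
CPM of the 7 genes in each of the 24 libraries by line, as points whose colour and shape give the set of libraries by gene length trend, with the mean of 4 libraries as a bar; each panel has its own linear axis from 0. ADPRH is at 2.15 to 3.42 CPM in control and at most 0.0526 in the Δ133p53 libraries, whereas ADPRS is higher in every square than in any circle.

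Genes on both sides of ADPRH had reads in all lines. The 4 nearest protein-coding genes on the side of lower coordinates are TMEM39A, POGLUT1, TIMMDC1 and CD80, and those on the other side are PLA1A, POPDC2, COX17 and CFAP91. TIMMDC1, an assembly factor of respiratory complex I that ends 54.2 kb before ADPRH, had from 1196 to 2695 reads in all 24 libraries. COX17, a copper chaperone for cytochrome oxidase that lies 64.6 kb on the other side, had from 278 to 588. Neither passed an adjusted p of 0.05 against control in any line, with log2 fold changes from -0.05 to 0.41 for TIMMDC1 and from 0.06 to 0.57 for COX17. TMEM39A and POGLUT1 did not pass in any line either, and each had at least 203 reads in a library. The genes directly beside ADPRH, CD80 at 19.7 kb and PLA1A at 7.93 kb, had 0 reads in all 24 libraries, control included, and give no information on the lines. POPDC2 had from 1 to 12 reads and was not tested. CFAP91, a cilium gene 113 kb away, had from 5 to 33 reads in control. It was lower in Δ133p53α1 by a log2 fold change of -3.8 (SE 0.716, adjusted p = 0.0022 from edgeR) and in Δ133p53α2 by -3.05 (SE 0.642, adjusted p = 0.00468). CFAP91 had 0 to 1 reads in the Δ133p53α1 libraries and 1 to 3 in those of Δ133p53α2, all at or under the floor of 3 reads. The fitted size of either fall is therefore not a measured one. In the other lines the log2 fold changes of CFAP91 were between -0.77 and -0.62, with adjusted p of at least 0.338. Its reads there numbered from 3 to 15 per library.

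**Figure D2:**
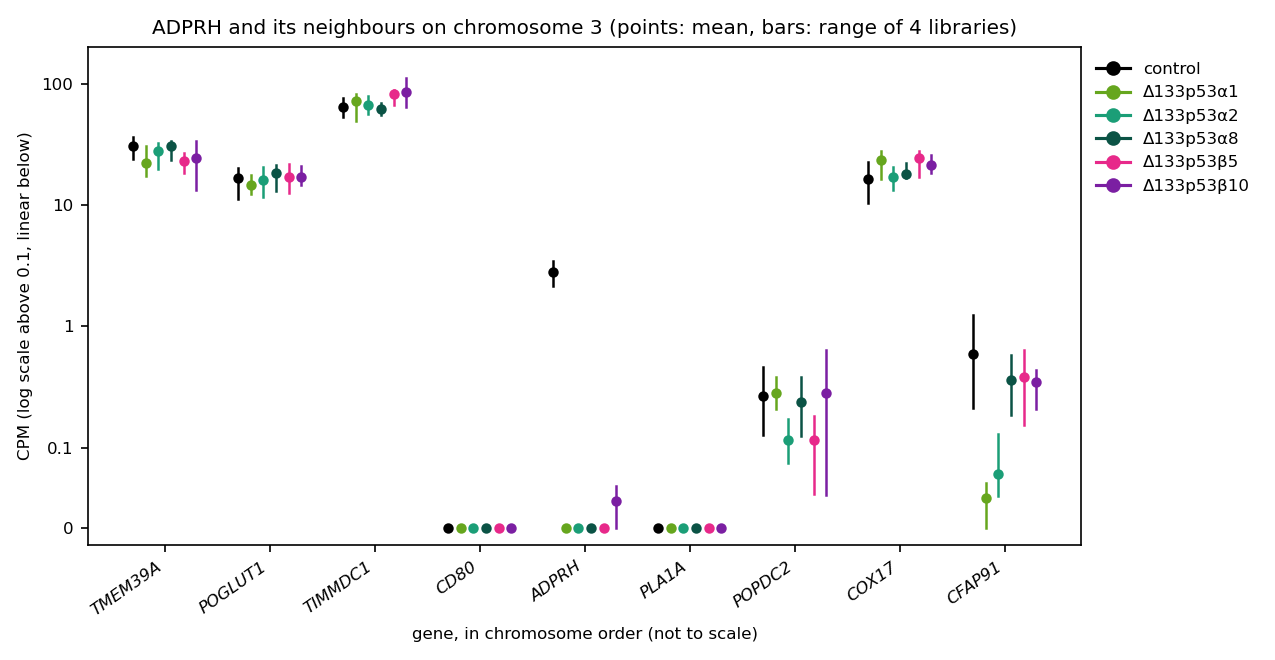
CPM of ADPRH and the 4 nearest protein-coding genes on each side, in chromosome order, on an axis that is logarithmic above 0.1 and linear below; points are means and bars ranges of 4 libraries per line. Between TIMMDC1 and COX17, which overlap across lines, ADPRH is above 2 CPM in control and near 0 in the 5 Δ133p53 lines, and CD80 and PLA1A are at 0 throughout.

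Per exon length (RPKM, computed from CPM and the GENCODE exon length), ADPRH was among the lower members in control. ADPRS led at 23.6 ± 5.58 RPKM (SD, n = 4), followed by PARG at 4.85 ± 0.92, OARD1 at 4.18 ± 0.472, MACROD1 at 2.47 ± 0.597, ADPRHL1 at 0.790 ± 0.176, ADPRH at 0.608 ± 0.143 and MACROD2 at 0.0217 ± 0.00661. The ranges of PARG and OARD1 overlapped, as did those of ADPRHL1 and ADPRH, and the other neighbours in this order did not. ADPRH made up 1.66% of the summed RPKM of the 7 genes in control and ADPRS 64.7%. Over the 20 Δ133p53 libraries ADPRS remained first at 33.7 ± 12.8 RPKM, OARD1 was at 5.63 ± 0.878, PARG at 4.66 ± 1.61 and MACROD1 at 3.87 ± 1.93, with the ranges of the last 3 overlapping. The range of MACROD1 also overlapped that of ADPRHL1, at 0.970 ± 0.272. MACROD2 was at 0.0283 ± 0.0141, and ADPRH, at or under the floor of 3 reads in all 20 libraries, overlapped MACROD2.

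The question for the other 6 genes was whether any hydrolase changed with ADPRH. Each line was tested against control, and a gene passed at an adjusted p under 0.05 over all 17990 genes in edgeR's quasi-likelihood test. In Δ133p53α2, 1 of the 6 passed, OARD1, where 5.12% of all tested genes passed. In Δ133p53α1, Δ133p53α8, Δ133p53β5 and Δ133p53β10, 0 of the 6 passed, where 4.75%, 4.37%, 9.52% and 9.91% of all genes did. At an unadjusted p under 0.05 the counts were 2, 1 and 0 of 6 in the 3 α lines (order Δ133p53α1, Δ133p53α2, Δ133p53α8) and 1 in both β lines (order Δ133p53β5, Δ133p53β10), where 25.8%, 15.7%, 14.7%, 24.3% and 27.9% of all genes had such a p. DESeq2's Wald test gave 1 in Δ133p53α2, 1 in Δ133p53β10, which was OARD1 as well, and 0 in the other lines, where it called 9.51%, 7.59%, 6.9%, 13.2% and 15.5% of all genes in Δ133p53α1, Δ133p53α2, Δ133p53α8, Δ133p53β5 and Δ133p53β10. Without Δ133p53α1 replicate 1, 2 of the 6 passed in Δ133p53α1, MACROD1 and PARG, while the share of all genes that passed there went from 4.75% to 22.4%. None of the 6 reached the further threshold of the study, a log2 fold change of 1.5, which with the adjusted p was met by 2.46%, 2.63%, 2.37%, 4.32% and 4.6% of all genes in Δ133p53α1, Δ133p53α2, Δ133p53α8, Δ133p53β5 and Δ133p53β10. The median log2 fold change of the 6 genes was 0.27, 0.46, 0.24, 0.32 and 0.44 in these lines, and the median of all tested genes between -0.05 and 0.03. The 95% confidence intervals of the 30 log2 fold changes reached from -1.41 to 2.09, and the widest belonged to MACROD1 and MACROD2.

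**Figure D3:**
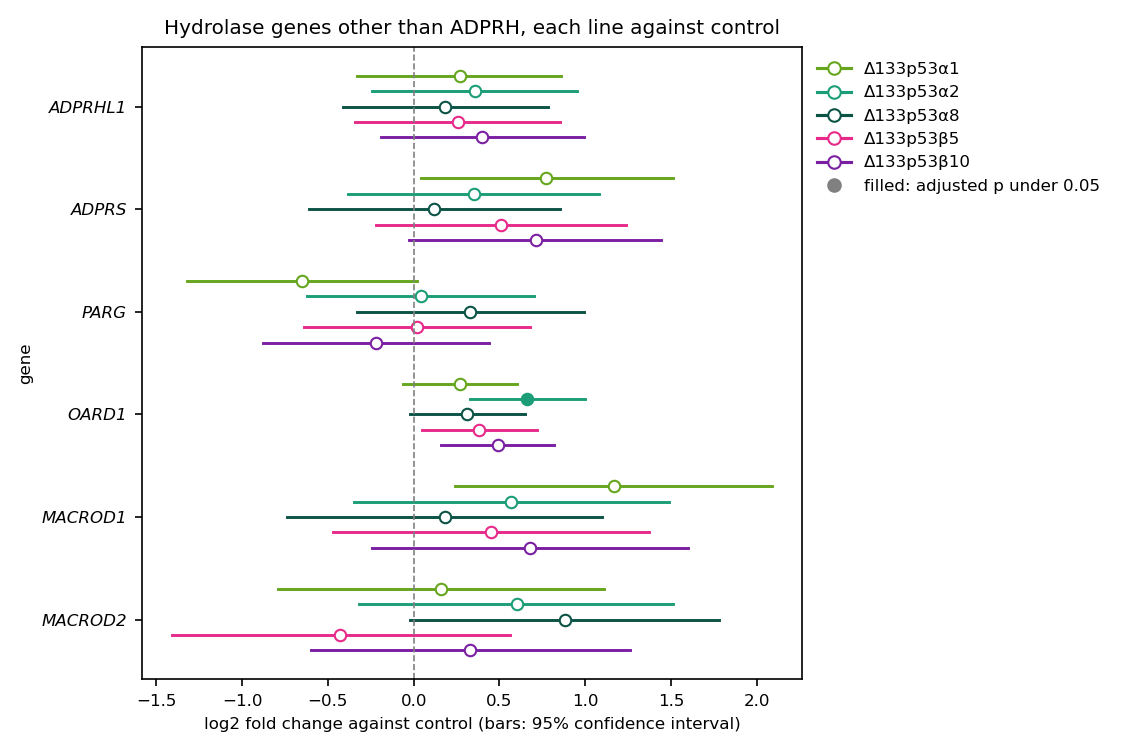
Log2 fold change of the 6 hydrolase genes other than ADPRH in each of the 5 lines against control, with 95% confidence intervals from edgeR's fit; a filled point has an adjusted p under 0.05. The 1 filled point is OARD1 in Δ133p53α2 at 0.66, and intervals are narrowest for OARD1.

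ADPRHL1 (ENSG00000153531, chromosome 13 from 113399611 to 113453488, minus strand) is the relative of ADPRH that is best known from the heart and is thought to lack the catalytic activity. It had 218, 175, 307 and 176 reads in control, or 8.70 CPM ± 1.94 (SD, n = 4), and means from 9.89 to 11.5 CPM in the 5 lines. The ranges overlapped in each comparison, and its log2 fold changes were from 0.18 in Δ133p53α8 to 0.40 in Δ133p53β10 (SE 0.286, adjusted p from 0.364 to 0.892 from edgeR). Within the positive set of libraries, where control and Δ133p53α2 or Δ133p53α8 had 3 libraries each, the log2 ratio to control was 0.01 and -0.14. In the negative set, with 1 library against 1, it was 1.1 and 0.89.

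ADPRS (ENSG00000116863, chromosome 1 from 36088892 to 36093932, plus strand), the relative of ADPRH that frees serine and also degrades poly(ADP-ribose), was the most abundant per length. Control libraries had 50.7, 39.1, 28.2 and 38.2 CPM, and Δ133p53α1 libraries 37.8, 67.4, 85.4 and 76.7. Δ133p53α2 libraries had 90.4, 42.1, 30.7 and 36.0 CPM and Δ133p53α8 libraries 39.6, 65.9, 34.0 and 30.0. Δ133p53β5 libraries had 40.4, 49.9, 55.7 and 76.3 CPM and Δ133p53β10 libraries 35.4, 62.2, 97.0 and 60.1. The ranges of control and of each line overlapped. The log2 fold change was 0.77 in Δ133p53α1 (SE 0.354, adjusted p = 0.177 from edgeR) and 0.71 in Δ133p53β10 (SE 0.354, adjusted p = 0.196), and lower in the other lines. Its levels separated the sets of libraries, with 28.2 to 42.1 CPM in the 12 positive and 49.9 to 97.0 CPM in the 12 negative libraries. With the set as a term of the fit, its log2 fold change in Δ133p53α1 was 0.27. In the positive set alone its log2 ratio to control was 0.05 in Δ133p53α2 and -0.03 in Δ133p53α8, with 3 libraries on each side. In the negative set, which held 1 control library, the ratio was from 0.26 (Δ133p53β5) to 0.84 (Δ133p53α2) over the 5 lines.

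PARG (ENSG00000227345, chromosome 10 from 49818279 to 49970203, minus strand), the main enzyme for degrading poly(ADP-ribose) chains, had 496, 673, 623 and 686 reads in control, or 25.0 CPM ± 4.74 (SD, n = 4). Its mean was lowest in Δ133p53α1, at 15.9 CPM ± 7.02, where the libraries held 626, 311, 213 and 187 reads, and highest in Δ133p53α8, at 31.5 CPM ± 4.30. The first library of Δ133p53α1 lay within the control range and the other 3 below it. The log2 fold change in Δ133p53α1 was -0.65 (SE 0.321, 95% CI -1.32 to 0.02, adjusted p = 0.201 from edgeR), and in the other lines between -0.22 and 0.33. That first library is the one of the positive set, in which PARG was at 23.4 to 33.9 CPM against 10.2 to 29.1 CPM in the negative set. Without Δ133p53α1 replicate 1 the fall was -0.99 (adjusted p = 0.0394), and with the set as a term it was -0.35. The pseudogene PARGP1, which may share reads with PARG, had from 3 to 90 reads per library, and the effect of shared reads on the PARG counts was not tested.

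OARD1 (ENSG00000124596, chromosome 6 from 41033627 to 41097787, minus strand) encodes a macrodomain protein that removes ADP-ribose from glutamate and aspartate. Control libraries had 27.6, 23.6, 31.1 and 26.8 CPM. Δ133p53α2 libraries had 50.6, 34.1, 47.0 and 41.1 CPM, all above control, and Δ133p53β10 libraries 33.4, 38.5, 42.1 and 39.2, also all above. The other lines overlapped control, with 27.1 to 36.8 CPM in Δ133p53α1, 28.7 to 39.2 in Δ133p53α8 and 29.9 to 38.3 in Δ133p53β5. In Δ133p53α2 OARD1 rose by a log2 fold change of 0.66 (SE 0.161, 95% CI 0.33 to 1.0, adjusted p = 0.0152 from edgeR), the only value of the 30 that passed. Over the 31 alternatives the adjusted p was from 0.000241 to 0.0785 and passed in 27. It did not pass without a filter on low counts, or without Δ133p53α2 replicate 1 (adjusted p = 0.0537), Δ133p53α2 replicate 3 (0.0502) or control replicate 2 (0.0602). The rise was present within each set of libraries, with a log2 ratio of 0.59 for 3 against 3 positive libraries and of 0.87 for 1 against 1 negative library, and with the set as a term it was 0.66 (adjusted p = 0.0021).

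In Δ133p53β10 the OARD1 log2 fold change was 0.49 (SE 0.161, 95% CI 0.16 to 0.82) and the adjusted p 0.0548 from edgeR, just short of the threshold. It passed in 7 of 31 alternatives, with adjusted p from 0.00879 to 0.175. Among them was the fit with the library of disputed clone counted in Δ133p53β10 (adjusted p = 0.0368). With the set as a term the log2 fold change was 0.37 (adjusted p = 0.0909 from edgeR), the lowest among the alternatives. In Δ133p53α1, Δ133p53α8 and Δ133p53β5 the log2 fold changes were 0.27, 0.31 and 0.38, with adjusted p of 0.268, 0.379 and 0.145. OARD1 shares 747 exon bases with UNC5CL on the same strand, and UNC5CL had from 7 to 26 reads per library against 555 to 1145 for OARD1.

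MACROD1 (ENSG00000133315, chromosome 11 from 63998558 to 64166113, minus strand) encodes a mitochondrial macrodomain hydrolase. Control libraries had 6.10, 4.98, 6.12 and 3.47 CPM and Δ133p53α1 libraries 5.95, 10.6, 15.6 and 14.5. Of the latter, 1 lay within the control range and 3 above it. The log2 fold change in Δ133p53α1 was 1.17 (SE 0.447, 95% CI 0.24 to 2.09, adjusted p = 0.122 from edgeR), the highest among the 30 values, and between 0.18 and 0.68 in the other lines. Without Δ133p53α1 replicate 1 it was 1.39 (adjusted p = 0.0388). The gene had 2.69 to 6.12 CPM in the positive and 6.10 to 16.5 CPM in the negative libraries, and with the set as a term the log2 fold change in Δ133p53α1 was 0.51.

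MACROD2 (ENSG00000172264, chromosome 20 from 13995369 to 16053197, plus strand), a related hydrolase of the nucleus and cytoplasm whose very long gene is often deleted in tumors, was close to the limit of detection. It had 9, 4, 7 and 5 reads in control and from 2 to 16 reads in the Δ133p53 libraries. Its log2 fold changes were from -0.43 in Δ133p53β5 to 0.88 in Δ133p53α8 (SE from 0.433 to 0.473, adjusted p from 0.355 to 0.838 from edgeR), and their intervals reached from -1.41 to 1.78. Differences within these intervals were not detectable at this depth.

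Between the isoforms, 0 of the 6 genes passed when the mean of the Δ133p53β lines was compared with that of the Δ133p53α lines, where 5.43% of all tested genes passed and 1.32% also reached the fold change threshold. None had an unadjusted p under 0.05, which 17.9% of all genes had, and DESeq2 also called 0, against 8.24% of all genes. The log2 differences, Δ133p53β minus Δ133p53α, were 0.06 for ADPRHL1, 0.19 for ADPRS, -0.01 for PARG, -0.07 for MACROD1 and 0.02 for OARD1, with adjusted p from 0.695 to 0.937 from edgeR except 0.992 for PARG. OARD1 had the narrowest interval, from -0.19 to 0.23. MACROD2 was 0.247 CPM in Δ133p53β and 0.375 CPM in Δ133p53α, a log2 difference of -0.59 (95% CI -1.21 to 0.02, adjusted p = 0.299). Libraries, not clones, are the units of this test, and there were 2 β and 3 α clones. The same holds for every comparison between the isoforms below, and no alternative left out a clone.

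By the correlation of log2 CPM over the 24 libraries, the genes whose pattern was most like that of ADPRH were SPATC1 (r = 0.994), ENSG00000232111 (r = 0.992), NETO1 (r = 0.991), RTL6 (r = 0.99) and the pseudogene LDHAL6FP (r = 0.989). These genes lie on chromosomes 8, X, 18, 22 and 6. Each had at least 16 reads in every control library and at most 3 in a Δ133p53 library, so that the correlations rest on the gap between 4 and 20 libraries. The genes most like the other members were POLR2E for ADPRS (r = 0.988), GPD1L for PARG (r = 0.97), NEK8 for MACROD1 (r = 0.961), SH3GLB2 for ADPRHL1 (r = 0.902), TTC12 for OARD1 (r = 0.883) and ULK4 for MACROD2 (r = 0.675). Libraries of the same set share a gene length trend, which enters these values.

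Genes of the enzyme families that attach ADP-ribose, together with the factor HPF1, formed a list of 22 genes, of which 17 were tested. Whether each product is an active enzyme was not examined. PARP1 and PARP2, the DNA damage-activated writers of poly(ADP-ribose), and HPF1, the factor that directs them to serine, did not pass in any line. PARP1 had 181 CPM ± 57.2 (SD, n = 4) in control and means from 163 to 203 CPM in the lines, with log2 fold changes between -0.15 and 0.17. Those of PARP2 were between -0.11 and 0.05 and those of HPF1 between 0.04 and 0.35. PARP11, a mono-ADP-ribosyltransferase, had 3, 5, 7 and 10 reads in control and from 28 to 117 reads in each library of Δ133p53α2, Δ133p53α8, Δ133p53β5 and Δ133p53β10. It rose by log2 fold changes of 3.68, 2.83, 3.29 and 2.93 in these 4 lines (SE from 0.413 to 0.417, highest adjusted p = 0.000127 from edgeR). In Δ133p53α1, with 6 to 25 reads, its log2 fold change was 1.3 (SE 0.425, adjusted p = 0.0804), and with the library set in the fit it was 1.66 (adjusted p = 0.00339). The difference between Δ133p53β and Δ133p53α was 0.51 (adjusted p = 0.242), and with the library set in the fit it was 0.79 (adjusted p = 0.00524), in a fit where 10.2% of all genes passed between the isoforms. PARP3, named here after its values were seen, was the other gene of the list to pass, in Δ133p53α2 (log2 fold change 1.05, adjusted p = 0.0441), and it passed in 17 of 31 alternatives, with adjusted p of up to 0.144 in the others. Thus 0 of 17 passed in Δ133p53α1 (2 at an unadjusted p under 0.05 and 1 by DESeq2), 2 in Δ133p53α2 and 1 in each other line, all higher. Of all genes, 2.04%, 2.16% and 1.9% were higher in the α lines (order Δ133p53α1, Δ133p53α2, Δ133p53α8), 3.9% in Δ133p53β5 and 4.82% in Δ133p53β10. Between the isoforms 0 passed (1 at an unadjusted p under 0.05 and 0 by DESeq2). The median log2 fold change of the list was between -0.22 and -0.02.

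A list of 11 genes was drawn up for ADP-ribose binding and recruited factors, and all were tested. A place in it does not mean that the product binds ADP-ribose, which was not examined. MACROH2A2, a histone variant with a macrodomain, passed in all 5 lines. It had 21, 32, 40 and 27 reads in control. Its log2 fold changes were 2.26 in Δ133p53α1, 3.79 in Δ133p53α2 and 3.43 in Δ133p53α8 (SE from 0.48 to 0.502, highest adjusted p = 0.00647 from edgeR). In Δ133p53β5 it rose by 1.54 (SE 0.475, adjusted p = 0.042) and in Δ133p53β10 by 1.68 (SE 0.475, adjusted p = 0.0273). The latter 2 calls passed in 20 and 25 of 31 alternatives, with adjusted p of up to 0.0935 in Δ133p53β5 and 0.139 in Δ133p53β10 in the others. Neither passed without any 1 of the 4 control libraries. In Δ133p53β5 the call was also lost without any 1 of its own libraries, and in Δ133p53β10 without its replicate 2 or its replicate 3. The Δ133p53β10 libraries had 71, 106, 134 and 10 reads, so that replicate 4 lay below the control range in reads and the others above it. The log2 difference of MACROH2A2, Δ133p53β minus Δ133p53α, was -1.55 (SE 0.305, adjusted p = 0.00274), which passed in all 31 alternatives. These again take libraries, not clones, as the units. The α clones differed, with at least 9.83 CPM in Δ133p53α2 and Δ133p53α8 and 4.14 to 7.42 CPM in Δ133p53α1. The latter range overlapped the 0.415 to 7.05 CPM of Δ133p53β10 and lay above the 2.98 to 3.95 CPM of Δ133p53β5. RNF146, a ubiquitin ligase that recognizes poly(ADP-ribose) and is named here after its values were seen, was the other gene to pass. It was lower in Δ133p53α1 by a log2 fold change of -0.97 (adjusted p = 0.0416) and passed in 18 of 31 alternatives, with adjusted p of up to 0.19 in the others. By edgeR 2 of the 11 thus passed in Δ133p53α1, 1 in each other line and 1 between the isoforms, where from 4.37% to 9.91% of all genes passed. DESeq2 also called MACROH2A1 in Δ133p53β5 and LIG3 between the isoforms. The median of this list was between -0.16 and 0.21.

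NAD+ is the substrate of ADP-ribosylation, and 10 of 12 genes of its synthesis were tested. NMNAT3, the mitochondrial member of the enzymes that complete NAD+, had 3, 8, 13 and 5 reads in control and 18 to 66 reads in each Δ133p53 library, without overlap. It rose in every line, with a log2 fold change of 1.80 for Δ133p53α1, of 2.76 in both other α lines and of 2.54 in both β lines (SE from 0.362 to 0.366, highest adjusted p = 0.00438 from edgeR), and passed in all 31 alternatives in each line. Its difference between the isoforms was 0.10 (SE 0.208, adjusted p = 0.835). NMNAT2, the member known for maintaining axons, was lower in Δ133p53α2 by a log2 fold change of -2.53 (SE 0.535, adjusted p = 0.00491) and in Δ133p53α8 by -2.23 (SE 0.519, adjusted p = 0.0122), the latter not past the threshold without control replicate 3 (adjusted p = 0.062). It had 8, 30, 44 and 16 reads in control and 2 to 7 in these lines. In Δ133p53α1 its log2 fold change was 0.27, with 16 to 41 reads. NMNAT1, the nuclear member, named here after its values were seen, was lower in Δ133p53α2 by -0.66 (adjusted p = 0.0302) and passed in 25 of 31 alternatives, with adjusted p of up to 0.148 in the others. No other gene of the list passed by edgeR, which makes 1 of 10 higher in each line, 2 lower in Δ133p53α2 and 1 lower in Δ133p53α8. Of all genes, from 1.9% to 4.82% were higher in a line, and the lower ones made up 2.71%, 2.96% and 2.48% in the α lines, ordered as before, 5.62% in Δ133p53β5 and 5.08% in Δ133p53β10. DESeq2 also called SLC25A51 in Δ133p53α1. Between the isoforms 0 passed (2 at an unadjusted p under 0.05 and 0 by DESeq2). With the library set in the fit 1 did, NMNAT2, at a log2 difference of 1.28 (adjusted p = 0.00559) against 0.95 (adjusted p = 0.0977) without it. The median was between -0.08 and 0.18.

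Among 16 genes of NAD+ use and of free ADP-ribose, 14 were tested. Like the other lists, this one, TRPM2 included, was drawn up with earlier results of these data known. TRPM2, a cation channel opened by free ADP-ribose, had 0, 2, 1 and 3 reads in control and 4, 5, 2 and 4 in Δ133p53α1. It had 35 to 107 reads in the libraries of Δ133p53α2 and Δ133p53α8 and 100 to 424 in those of Δ133p53β5 and Δ133p53β10. With 3 reads taken as the floor of each control library, its level was at least 26.6-fold (Δ133p53α2), 21.1-fold (Δ133p53α8), 91.5-fold (Δ133p53β5) and 81.3-fold (Δ133p53β10) higher, and it passed in these 4 lines in all 31 alternatives (highest adjusted p = 0.000564). In Δ133p53α1 it did not pass (adjusted p = 0.245 from edgeR). The log2 difference of TRPM2, Δ133p53β minus Δ133p53α, was 3.16 (SE 0.339, adjusted p = 1.81e-06), and this passed in all 31 alternatives. Libraries, not clones, are the units there, and no alternative left out a clone. The size of the TRPM2 difference rests in part on Δ133p53α1, which was near the floor. Δ133p53α2 and Δ133p53α8 alone had from 1.46 to 6.12 CPM of TRPM2, which overlapped the 4.14 to 22.3 CPM of the Δ133p53β libraries.

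BST1, an enzyme that makes cyclic ADP-ribose from NAD+, had 87, 61, 53 and 53 reads in control and 13 to 37 in each Δ133p53 library. It fell in each of the 5 lines. The log2 fold changes were -1.33, -1.75 and -1.25 in the α lines, in the order Δ133p53α1, Δ133p53α2 and Δ133p53α8, and -1.84 and -1.77 in Δ133p53β5 and Δ133p53β10 (SE from 0.297 to 0.307, highest adjusted p = 0.0144 from edgeR). The Δ133p53α8 value did not pass in 4 of 31 alternatives, which were no filter and leaving out Δ133p53α8 replicate 1, Δ133p53α8 replicate 3 or control replicate 1, with an adjusted p of up to 0.075. Its difference between the isoforms was -0.36 (SE 0.202, adjusted p = 0.364).

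**Figure D4:**
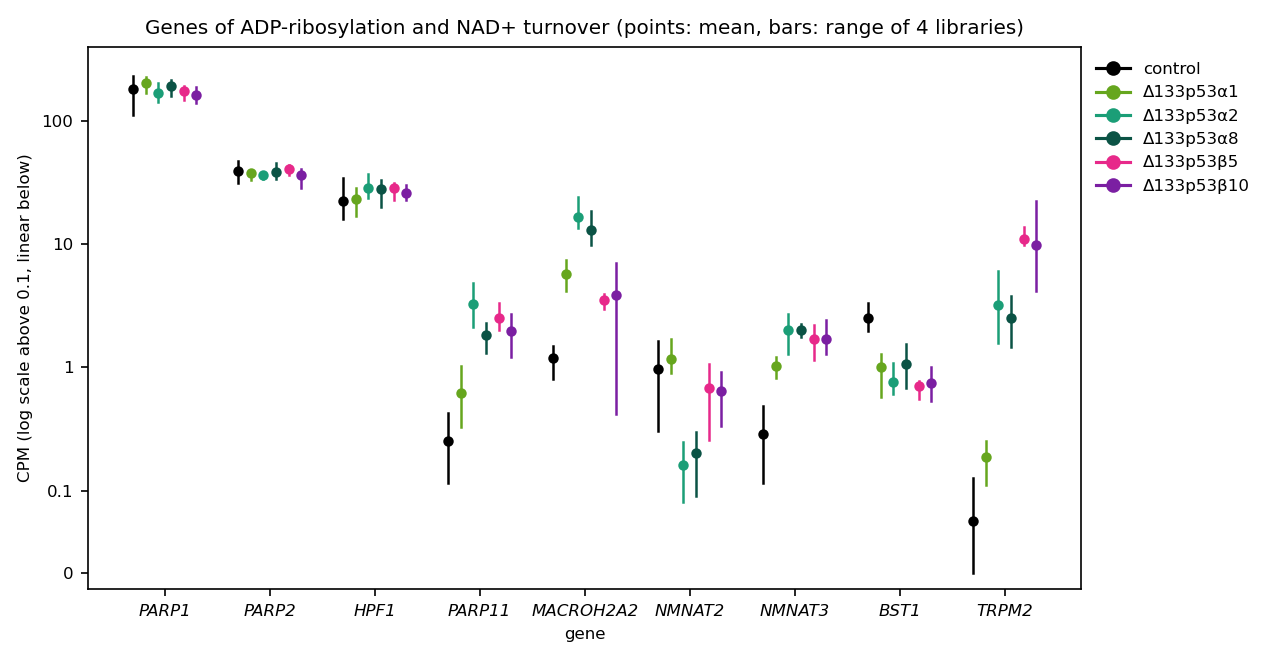
CPM of 9 genes of ADP-ribosylation and NAD+ turnover per line, on an axis that is logarithmic above 0.1 and linear below; points are means and bars ranges of 4 libraries. PARP1, PARP2 and HPF1 overlap across lines, PARP11, MACROH2A2, NMNAT3 and TRPM2 lie above control in most lines, and BST1 lies below control in all 5.

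In the Δ133p53β lines SARM1 and NUDT5 of the same list also passed, and both are named here after their values were seen. SARM1, an NAD+ hydrolase, was lower in Δ133p53β5 by a log2 fold change of -1.41 (adjusted p = 0.00011 from edgeR) and in Δ133p53β10 by -1.34 (adjusted p = 0.00021). It differed between the isoforms by -1.02 (SE 0.138, adjusted p = 4.62e-05), in all 31 alternatives. NUDT5, which cleaves free ADP-ribose, was higher by 0.67 in Δ133p53β5 (adjusted p = 0.0415) and 0.73 in Δ133p53β10 (adjusted p = 0.0281), and these calls passed in 20 and 24 of 31 alternatives, with adjusted p of up to 0.139 in the others. Its difference between the isoforms was 0.64 (SE 0.131, adjusted p = 0.00388), also in all 31. For both genes libraries, not clones, are the units of the test between the isoforms, and no alternative left out a clone. With the library set in the fit NUDT5 was higher by 0.44 in Δ133p53β5, 0.49 in Δ133p53β10 and 0.49 between the isoforms, each of which passed. SIRT4 in Δ133p53β5 (log2 fold change -1.36, adjusted p = 0.0495) and ENPP1 in Δ133p53β10 (-0.84, adjusted p = 0.0464) passed in 10 and 12 of 31 alternatives, with adjusted p of up to 0.14 in the others. With the library set in the fit SIRT4 was lower and passed in each of the 5 lines. Its log2 fold changes there lay between -1.91 (Δ133p53β5) and -1.13 (Δ133p53α1), with a highest adjusted p of 0.0202. In that fit 6.16%, 12.1%, 10.1%, 15.8% and 13.6% of all genes passed in Δ133p53α1, Δ133p53α2, Δ133p53α8, Δ133p53β5 and Δ133p53β10. DESeq2 called SIRT4 in Δ133p53α2 and Δ133p53β5. Of the 14 genes, 0 were higher and 1 lower in Δ133p53α1, 1 higher and 1 lower in Δ133p53α2 and in Δ133p53α8, and 2 higher and 3 lower in each Δ133p53β line by edgeR. The shares of all genes that passed were 4.75%, 5.12% and 4.37% in the α lines, in the same order, and 9.52% and 9.91% in Δ133p53β5 and Δ133p53β10. The median was between -0.12 and 0.08, with TRPM2 at its lower bound as well.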

How the data were processed

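Strand-specific mRNA libraries were made and sequenced by a service provider. The authors trimmed the reads, ran HISAT2 against GRCh38 and summed exon reads per gene (featureCounts, Ensembl models). Whether strand was used in counting, and what became of multi-mapping reads, is not given in the sources used here. The values are raw read counts as deposited, without normalization. One unnamed row with 0 reads was left out, which leaves 35020 genes with a count. No 2 libraries of a line agreed within counting noise (lowest chi-square per degree of freedom 17.2 over 36 pairs).

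Counts were tested in R 4.3.3 with edgeR 4.0.16 (TMM, filterByExpr by group, 6 groups in 1 quasi-likelihood fit, residual degrees of freedom 18, Benjamini-Hochberg adjustment over 17990 genes). The filter kept at least 99.87% of the counts of a library. Positions, exon lengths and overlaps are from GENCODE. The procedure was run on simulated counts that had only large changes in a single line and no sets of libraries. Smaller changes and the effect of the sets were not simulated. Alternatives were RLE size factors, DESeq2 1.42.0, no filter, a replicate block, the set of libraries as a term, both other treatments of the disputed library, and leaving out each library in turn. DESeq2's Wald test is the one the methods of the study name.

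The members and lists were chosen with earlier results of these data known. Named beside the members were PARP1, PARP2, HPF1 and TRPM2, up to 4 genes per list with the lowest adjusted p among those past both thresholds in a line, the 4 nearest protein-coding genes on each side of ADPRH, and the genes with the highest correlation of log2 CPM (prior count 2). One further gene of this rule, a check of the labels, is not reported here.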

Additional observations from a re-analysis of the deposited data

Results flagged for a closer look

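In each line, the highest and the lowest of the 4 libraries were compared with the others by Dixon's gap test at its 95% value, over 37 combinations of gene and line in which some library had more than 3 reads. Chance flags about 1 in 20 such groups, and 5 of 37 stood apart. ADPRHL1 was at 17.95 CPM in Δ133p53α2 replicate 1 and MACROD1 at 16.52 CPM in the same library, each above the other 3 libraries of the line. In Δ133p53α8 replicate 2, PARG was at 25.06 CPM, below the other 3 libraries, and MACROD1 at 8.63 CPM, above them. These 2 libraries are the single ones of their lines with a negative gene length trend, and the part of that trend in the values was not tested. MACROD2 was at 0.5584 CPM in Δ133p53α1 replicate 3, which rests on 10 reads.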

How the results depend on the processing

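The number of hydrolase genes past the threshold depended on OARD1 in most cases. In Δ133p53α2 it went from 1 to 0 without a filter on low counts, and in Δ133p53β10 from 0 to 1 with RLE size factors, with DESeq2 and with the library of disputed clone in Δ133p53β10. Leaving out each library in turn gave 0 to 2 in Δ133p53α1, 0 to 1 in Δ133p53α2 and 0 to 1 in Δ133p53β10, and 0 in Δ133p53α8, in Δ133p53β5 and between the isoforms. The bound on ADPRH in Δ133p53α1 moved from 18.5-fold to 22.9-fold with library sizes taken as total counts. The main fit did not pair libraries by replicate number, and deviations of same-numbered libraries correlated from -0.886 to 0.893. The sets of libraries enter these correlations, which therefore cannot show whether same-numbered libraries were prepared together. With the replicate block, 1 gene passed in Δ133p53α2, OARD1 at a log2 fold change of 0.67 (adjusted p = 0.0189), and 0 in the other comparisons, and PARG in Δ133p53β5 turned to -0.01.

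None of the values that changed sign had passed the threshold in the report. With the library set in the fit, ADPRHL1 was -0.07 in Δ133p53α1, -0.05 in Δ133p53β5 and -0.1 between the isoforms, ADPRS -0.07 between the isoforms, PARG 0.1 in Δ133p53β10 and 0.24 between the isoforms, MACROD1 -0.15 in Δ133p53β5 and -0.04 in Δ133p53β10, and OARD1 -0.06 between the isoforms. PARG between the isoforms was 0.07 without the disputed library and 0.04 with it in Δ133p53β10. With 1 library left out, the log2 fold change ranged across 0 for ADPRHL1 in Δ133p53α8 (-0.12 to 0.35) and between the isoforms (-0.04 to 0.17), for ADPRS in Δ133p53α2 (-0.11 to 0.53) and Δ133p53α8 (-0.17 to 0.27), for PARG in Δ133p53α2 (-0.09 to 0.21), Δ133p53β5 (-0.14 to 0.18) and between the isoforms (-0.14 to 0.11), for MACROD1 in Δ133p53α2 (-0.13 to 0.78), Δ133p53α8 (-0.06 to 0.28) and between the isoforms (-0.19 to 0.16), for MACROD2 in Δ133p53α1 (-0.37 to 0.36) and Δ133p53β10 (-0.07 to 0.53), and for OARD1 between the isoforms (-0.01 to 0.06). The cause of these changes was not tested. Depth limits ADPRH in the Δ133p53 lines and MACROD2 throughout.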
